A study of Rattus norvegicus with 40 samples.

Results

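Potassium channel genes were followed through 4 days after balloon injury of the rat carotid artery. Every probe set of the Affymetrix U34A array whose only gene symbol in the platform annotation begins with Kcn was taken: 82 probe sets of 54 genes, out of 8740 probe sets without controls. By role they were 41 probe sets of voltage-gated pore (alpha) subunits, 6 of voltage-gated auxiliary subunits, 22 of inward rectifiers, 7 of calcium-activated channels, 2 of the auxiliary subunit Kcnmb1 and 4 of two-pore channels. Several genes had more than 1 probe set (22 of the 54), so probe sets of one gene share a target and are not replicates.

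Male Wistar-Kyoto rats of 3 months gave the common carotid arteries, and each of the 40 arrays held RNA pooled from 3 vessels. Left arteries of intact rats (6 arrays) and of sham-operated rats at day 1 (4 arrays) and day 4 (6 arrays) were the controls. In the other rats the left artery was injured with a balloon catheter and its outer side was covered with Pluronic gel, either plain or holding recombinant tissue-type plasminogen activator (tPA) at 20 nmol/kg. Left injured and right uninjured arteries of both treatments were taken at day 1 and at day 4, with 3 arrays in each of those 8 groups. Sham operation is not described further in the labels, and the sham rats carried neither gel nor tPA as far as the labels say. Whole vessels were used, so a lower level can come from fewer cells of a type or from less RNA per cell, which cannot be told apart here. The labels number the samples but do not say which rats gave both a left and a right artery, and the p-values measure the spread between these pools.

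Potassium channels let potassium leave the cell and hold the membrane of arterial smooth muscle at a negative potential, which keeps voltage-gated calcium channels closed and the muscle relaxed. In this tissue the best-known members are the calcium-activated BK channel (pore Kcnma1, auxiliary subunit Kcnmb1), voltage-gated channels such as Kcna5, the ATP-sensitive KATP channel (pore Kcnj8 or Kcnj11 with a sulfonylurea receptor, Abcc9 or Abcc8), inward rectifiers and the acid-sensitive two-pore channel Kcnk3. In cultured or injured smooth muscle, loss of the contractile state is known to go with a change in the set of potassium channels.

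Of the 6 genes called between injured gel-treated and sham arteries at day 4 (values below), 3 have an entry in the promoter set used, of the rat genome build GRCr8. The 250 bases before the start of each are shown, since 1 of them rose and both others fell. They lie at chr11:48070700-48070949, plus strand (Kcnj15), chr10:19061849-19062098, plus strand (Kcnmb1) and chr10:86188477-86188726, minus strand (Kcnh4). Capitals mark matches on either strand to a CArG box (searched as CC, then 6 letters A or T, then GG), to the GC box GGGCGG, to the E-boxes with the letters CACGTG or with the letters CAGCTG, or to the AP-1 motif with the letters TGANTCA. No printed match overlaps another.
Kcnj15: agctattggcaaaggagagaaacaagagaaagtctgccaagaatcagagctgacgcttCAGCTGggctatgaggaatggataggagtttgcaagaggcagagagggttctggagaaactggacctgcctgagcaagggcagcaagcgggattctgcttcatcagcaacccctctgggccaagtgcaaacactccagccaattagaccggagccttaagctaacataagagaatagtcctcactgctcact
Kcnmb1: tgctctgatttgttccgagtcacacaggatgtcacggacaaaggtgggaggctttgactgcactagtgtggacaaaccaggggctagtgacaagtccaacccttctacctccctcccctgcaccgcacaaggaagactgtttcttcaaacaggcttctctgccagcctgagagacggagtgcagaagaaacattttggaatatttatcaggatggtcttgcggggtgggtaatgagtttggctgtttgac
Kcnh4: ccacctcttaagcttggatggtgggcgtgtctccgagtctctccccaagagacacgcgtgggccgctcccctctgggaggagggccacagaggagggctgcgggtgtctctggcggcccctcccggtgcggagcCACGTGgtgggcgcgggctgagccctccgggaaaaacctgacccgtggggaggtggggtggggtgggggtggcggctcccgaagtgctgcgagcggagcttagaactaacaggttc
The promoter of Kcnj15 held 1 match, CAGCTG, a motif found in 11.97% of the 33469 promoters of this length and in 7 of the 40 Kcn promoters listed. The promoter of Kcnh4 held CACGTG, which 5.59% of all promoters and 1 of the 40 Kcn promoters held. Kcnmb1 had no match to any of the searched motifs in this window. A CArG box, the site read by serum response factor, was in 0 of the 40 Kcn promoters and in 1.5% of all. GGGCGG was in 20 of the 40 Kcn promoters against 30.47% of all, and TGANTCA in 2 against 6.34% of all; the Kcn promoters had a median GC content of 63.4% against 51.2%. The Kcn figures count a single promoter per gene, whereas those of all count every entry of the set, without limit to genes on the array. These matches describe the letters only. Kcnk3, Kcnh2, Kcnj3 and Kcnj11 have no entry in that promoter set and are given by name only.

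The arrays were comparable in scale, with a mean of 500 after trimming on each, and medians of 104 to 169. An index of injury was built from other probe sets, 754 higher and 608 lower in gel-treated injured arteries, and 4 tPA arrays stood apart from their groups on it. Left tPA day 4 replicate 1 was at -0.52 and left tPA day 1 replicate 2 at -0.01, whereas the other injured left arrays lay between 1.23 and 2.02. Right tPA day 1 replicate 2 was at 1.42 and right tPA day 4 replicate 1 at 1.40, whereas the other right arrays lay between -0.65 and 0.30. The main differences of the left tPA groups are given with and without these arrays. Since the index comes from the injury contrast, a value without them is a description. A comparison that holds none of these arrays keeps its difference without them. Only the spread shared by all groups then changes, so a call gained that way is no further evidence. Left gel day 1 replicates 1 and 3 differed least of 60 replicate pairs (SD of their log2 differences 0.45 against a median of 0.84), and right gel day 1 replicate 3 had 6.57% of its probe sets at or under the floor against 15.6% to 25.2% on the other arrays.

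Within each group, taken singly, most Kcn probe sets were above the floor, set at the 20th percentile of all values (23.3 intensity units). By group median, 55 of 82 were above it in intact arteries, 51 in sham arteries at day 1 and 58 at day 4. In right arteries of gel-treated rats the number was 62 at day 1 and 53 at day 4, and under tPA it was 55 at day 1 and 55 at day 4. In injured arteries it was 47 under gel at day 1, 60 under gel at day 4, 59 under tPA at day 1 and 57 under tPA at day 4. These are 57.3% to 75.6% of the Kcn probe sets, against 77.6% to 83.2% of all probe sets by group. Counting only probe sets above the floor on every array of a group gave 37 to 45. In all 11 groups 38 probe sets were above the floor, and 13 were above it in none, among them those of Kcnj2, Kcnq1, Kcnn3 and Kcna3.

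**Figure D1:**
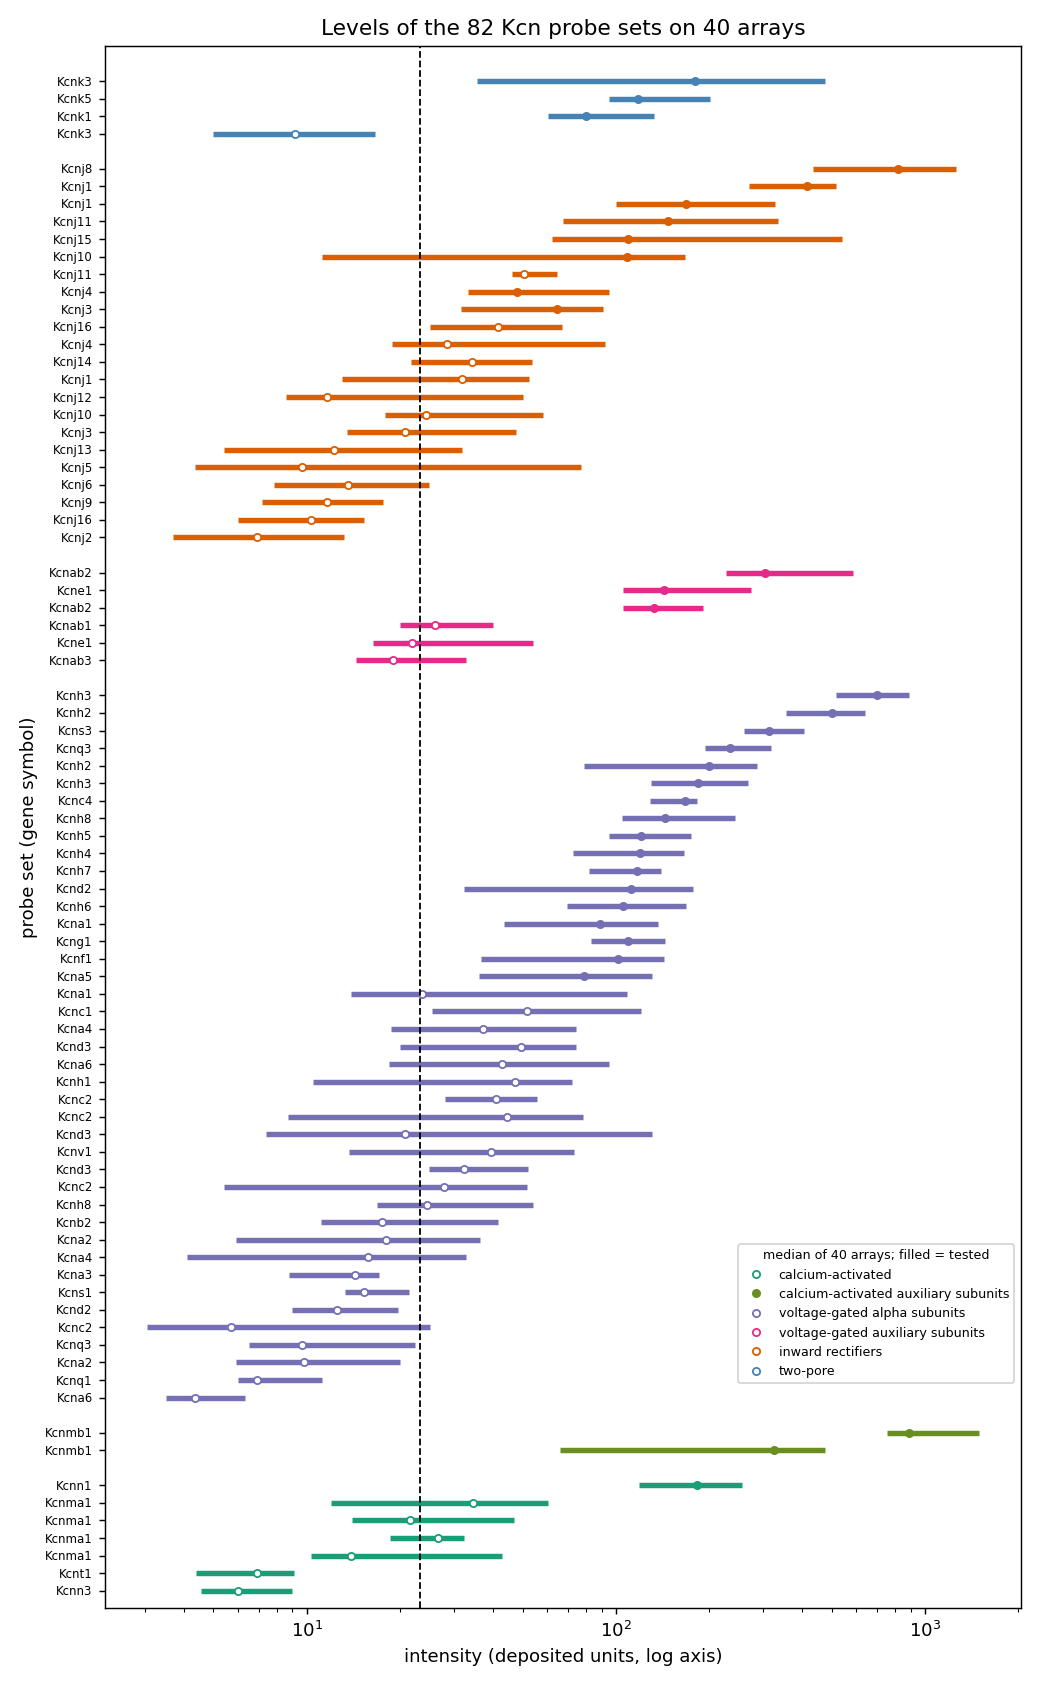
Each row is a probe set of a Kcn gene, grouped by role; the bar runs from its lowest to its highest group median over the 11 groups and the circle is its median over 40 arrays, in deposited intensity units on a log axis. The dashed line is the floor at 23.3; filled circles are the 34 probe sets bright enough to be tested, and both Kcnmb1 probe sets and Kcnj8 lie far to its right.

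Brightness ranged widely among the members, and since each probe set binds with its own strength, an intensity does not rank one gene against another. Among the genes known from arterial smooth muscle, the brighter Kcnmb1 probe set had a median of 887 over 40 arrays and a range of 479 to 1809. Kcnj8, the vascular KATP pore, had a median of 816 and a range of 364 to 1902. Kcna5 ran from 23.2 to 265 with a median of 79.2. The 4 probe sets of Kcnma1, the BK pore, were dim, with medians of 13.9 to 34.7, and were above the floor on 4 to 28 of 40 arrays, so none was tested. Kcnj2, the classical strong inward rectifier, was above the floor on 2 arrays and Kcnq1 on 0. The second probe set of Kcnk3 was under the floor on all 40 arrays and cannot speak for or against the first.

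A probe set entered the tests if the mean of its floored log2 values over all 40 arrays was not among the 2913 lowest, which 34 Kcn probe sets of 29 genes did and 48 did not. They comprised 17 of voltage-gated pores, 3 of their auxiliary subunits, 8 of inward rectifiers, 1 calcium-activated pore (Kcnn1), both of Kcnmb1 and 3 two-pore channels. limma was fitted to all 5827 probe sets passing that filter, and a call is an adjusted p under 0.05 (Benjamini-Hochberg over those 5827). Differences are log2, first group minus the other; fold changes come from them, and values under the floor were raised to it first.

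Balloon injury under plain gel was asked about first, by setting injured left arteries against sham arteries. At day 4 the inward rectifiers Kcnj15 and Kcnj3 rose, and the two-pore channel Kcnk3, the BK auxiliary subunit Kcnmb1 (1 of its 2 probe sets) and the voltage-gated pores Kcnh2 (1 of 2 probe sets) and Kcnh4 fell. That is 6 of 34 probe sets, 17.6%, where 19.2% of all tested probe sets were called; 2 were higher (11.3% of all tested) and 4 lower (7.89% of all tested). On 7 of the 34 the groups did not overlap, where 23.8% of all tested did not. The median difference of the 34 was -0.23, against 0.02 over all tested, and 23 of 34 were below 0. At day 1 none of the 34 was called by limma, where 3.12% of all tested probe sets were; 2 had an unadjusted p under 0.05 and the median was -0.10.

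**Figure D2:**
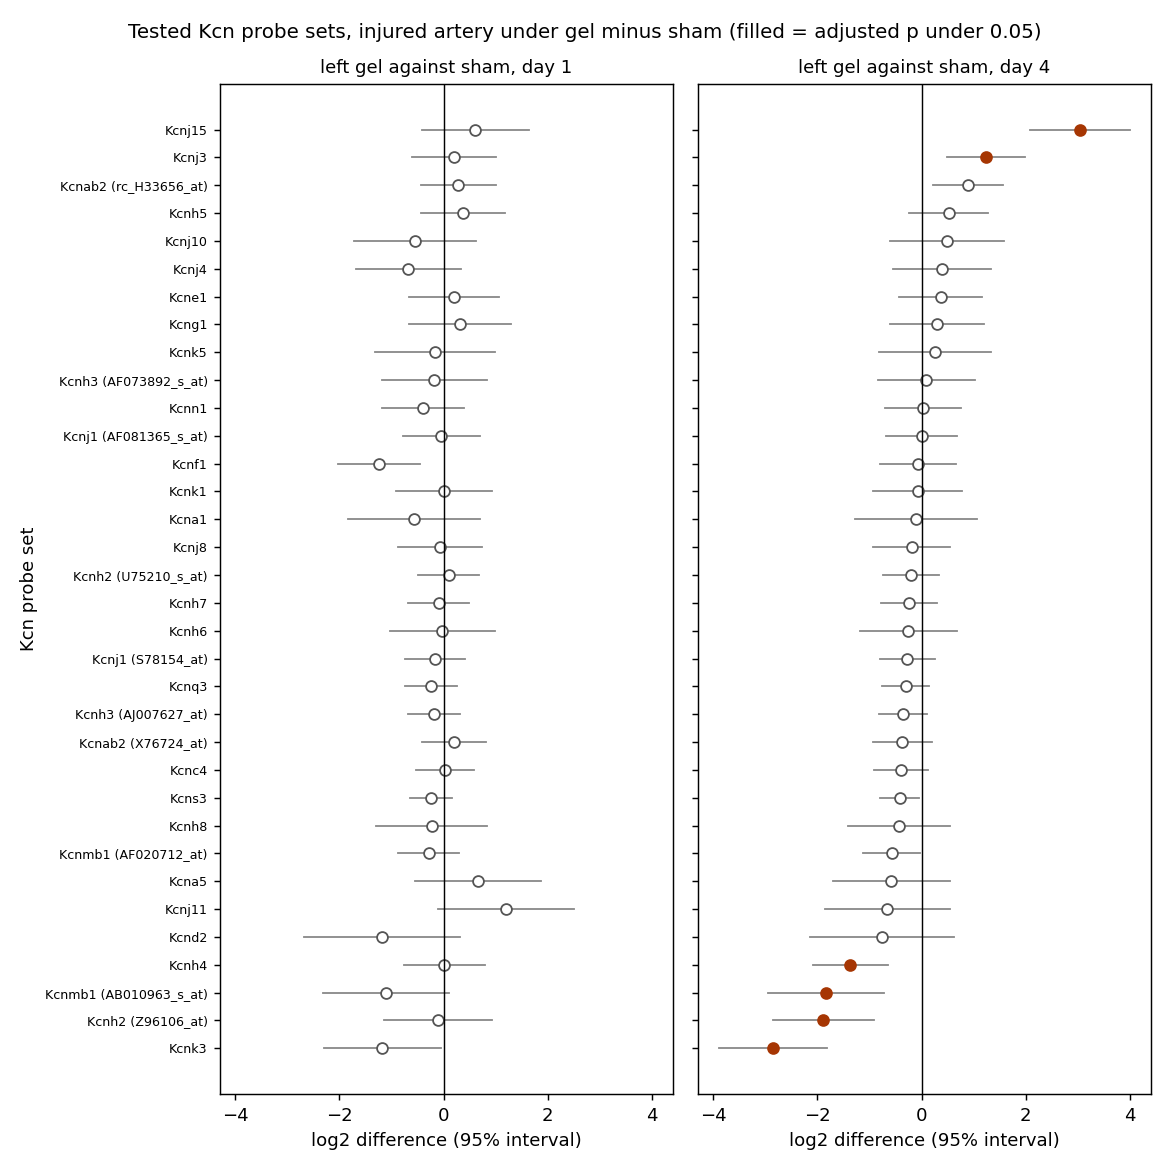
Log2 difference of the 34 tested Kcn probe sets between injured left arteries under gel and sham arteries, with 95% intervals, at day 1 (left panel) and day 4 (right panel), ordered by day 4. Filled circles are the 6 calls, all at day 4, from Kcnk3 at -2.85 to Kcnj15 at 3.04; most open circles lie near 0.

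Kcnj15 encodes an inward rectifier best known from the kidney. In injured arteries at day 4 it read 541, 450 and 794 on the 3 gel arrays. Sham arteries at day 4 read 44.7 at the lowest, 70.3 at the median and 139 at the highest, so every injured array was far above every sham array. The difference was 3.04 (SE 0.47), an 8.23-fold rise with a 95% interval of 4.24 to 16.0, and the adjusted p from limma was 4.333e-05.

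At day 1 Kcnj15 read 162, 136 and 173 under gel and 134, 92.9, 87.2 and 101 in sham arteries. The groups did not overlap but lay close together, and the difference of 0.61 (SE 0.51) was not called (adjusted p 0.684 in limma). From day 1 to day 4 within injured gel arteries it rose by 1.89 (SE 0.54, adjusted p 0.0471), a call lost without any 1 of the 6 arrays (adjusted p up to 0.177). The change of the injury difference from day 1 to day 4 was 2.43 (SE 0.69) with an adjusted p of 0.0525 in limma, just short of the threshold. It passed without sham day 4 replicate 6 (2.63). The same value passed in the fit without the 4 tPA arrays (adjusted p 0.00947), none of which is compared here. It also passed with array weights, the replicate block, only the groups compared or the floor at the 40th percentile (adjusted p 0.000539 to 0.0439). Its neighbour on the chromosome in the GRCr8 annotation, Kcnj6, was dim and not tested, with group medians of 7.85 to 24.9.

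Kcnj3, a pore of the G protein-gated inward rectifiers, read 92.7, 70.9 and 90.8 under gel at day 4. Sham arteries read 19.2 to 64.7 with a median of 31.6, so the groups did not overlap, although Kcnj3 was 66.2 at the median of intact arteries and 51.2 to 119 in sham arteries at day 1. The difference from day 4 sham was 1.24 (SE 0.37, adjusted p 0.0147 in limma). It lay close to the floor: with the floor at the 40th percentile the difference was 0.14 and was not called, and it was not called without left gel day 4 replicate 1 (1.17) or 3 (1.19).

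Kcnk3, the acid-sensitive two-pore channel that carries background potassium current, had the largest fall of the 34. It read 56.0, 38.3 and 44.5 under gel at day 4, against 265 at the lowest, 326 at the median and 446 at the highest in sham arteries. No injured array came near the sham range. The difference was -2.85 (SE 0.51), a 7.21-fold lower level with a 95% interval of 3.51 to 14.8 and an adjusted p of 0.000186 in limma.

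At day 1 Kcnk3 read 47.5, 179 and 67.6 under gel and 206, 201, 212 and 144 in sham arteries. The array at 179 lay within the sham range and both others did not. The difference of -1.18 (SE 0.55) was not called (adjusted p 0.306), and the change of the injury difference between the days, -1.67 (SE 0.75), was not called either (adjusted p 0.302). Both depended on the fit: with array weights the day 1 difference was -1.66 and called (adjusted p 0.000132), and with only the groups compared in the fit the change between the days was called (adjusted p 0.044).

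Kcnmb1 raises the calcium sensitivity of the BK channel in smooth muscle. Its dimmer probe set read 130, 330 and 48.9 under gel at day 4 against 378 to 499, median 473, in sham arteries. All 3 injured arrays were below all 6 sham arrays, but they spread widely. The difference was -1.83 (SE 0.55, adjusted p 0.0161 in limma); it was not called without replicate 1 (-1.85) or replicate 3 (-1.14) of the gel group. The brighter probe set read 815, 838 and 855 against 719 to 1809, median 1494, with overlap, and its difference of -0.58 (SE 0.27) was not called (adjusted p 0.135), though it was without sham day 4 replicate 3 (-0.74). Across the 40 arrays, which share these groups, the probe sets of Kcnmb1 correlated at r = 0.45.

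Kcnh2, the ether-a-go-go related channel that repolarises heart muscle, fell on its dimmer probe set and was not called on its brighter one. That probe set read 75.4, 79.0 and 88.8 under gel at day 4 against 127 to 700, median 285, in sham arteries, without overlap. The difference was -1.89 (SE 0.47, adjusted p 0.00421 in limma). The brighter probe set read 554, 611 and 538 against 561 to 842, and its difference was -0.21 (SE 0.27, adjusted p 0.678). The pair correlated at r = 0.16 over 40 arrays, so the fall is reported for 1 probe set and is uncertain for the gene.

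Kcnh4, of the same ether-a-go-go family, read 72.7, 12.6 and 145 under gel at day 4 against 122 to 205, median 166, in sham arteries. The groups overlapped and the array at 12.6 was under the floor. The difference was -1.37 (SE 0.35, adjusted p 0.00512 in limma), and without that array it was -0.65 and not called.

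Several well-known arterial members were not called at day 4. Kcnj8 read 555, 707 and 899 under gel against 369 to 1049, median 947, in sham arteries; the difference was -0.19 with a 95% interval of -0.94 to 0.55. At day 1 it read 622, 618 and 631 under gel, inside the sham values of 453 to 900. Kcna5 read 35.2, 117 and 36.1 against 39.5 to 157, median 81.3, and the difference was -0.58 (interval -1.70 to 0.55).

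Kcnab2, a beta subunit of voltage-gated channels, read 509, 443 and 549 on its brighter probe set under gel at day 4 against 221 to 356, median 262, in sham arteries. The groups did not overlap and the difference was 0.89 (SE 0.33), with an adjusted p of 0.0542 in limma, just outside the threshold. The same difference was called in the limma fit without the 4 tPA arrays (adjusted p 0.00965), none of which is compared here. It was also called without sham day 4 replicate 2 (0.97). Array weights (0.96), only the groups compared, the floor at the 40th percentile or leaving out more of the dim probe sets also gave a call. The other probe set read 136, 105 and 96.2 against 103 to 189, and its difference was -0.37 (SE 0.28, adjusted p 0.405), so the probe sets differed in sign.

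By role at day 4, 14 of the 17 probe sets of voltage-gated pores (15 genes) were below 0 (2 called) with a median of -0.30. The 8 probe sets of inward rectifiers (7 genes) had 4 on either side (2 called, both higher) with a median of 0.20. Of the 3 two-pore channels only Kcnk3 was called, Kcnk1 and Kcnk5 lying at -0.08 and 0.26. Kcnn1, the small-conductance calcium-activated pore, was at 0.03. Over all tested probe sets the median was 0.02 and 19.2% were called.

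**Figure D3:**
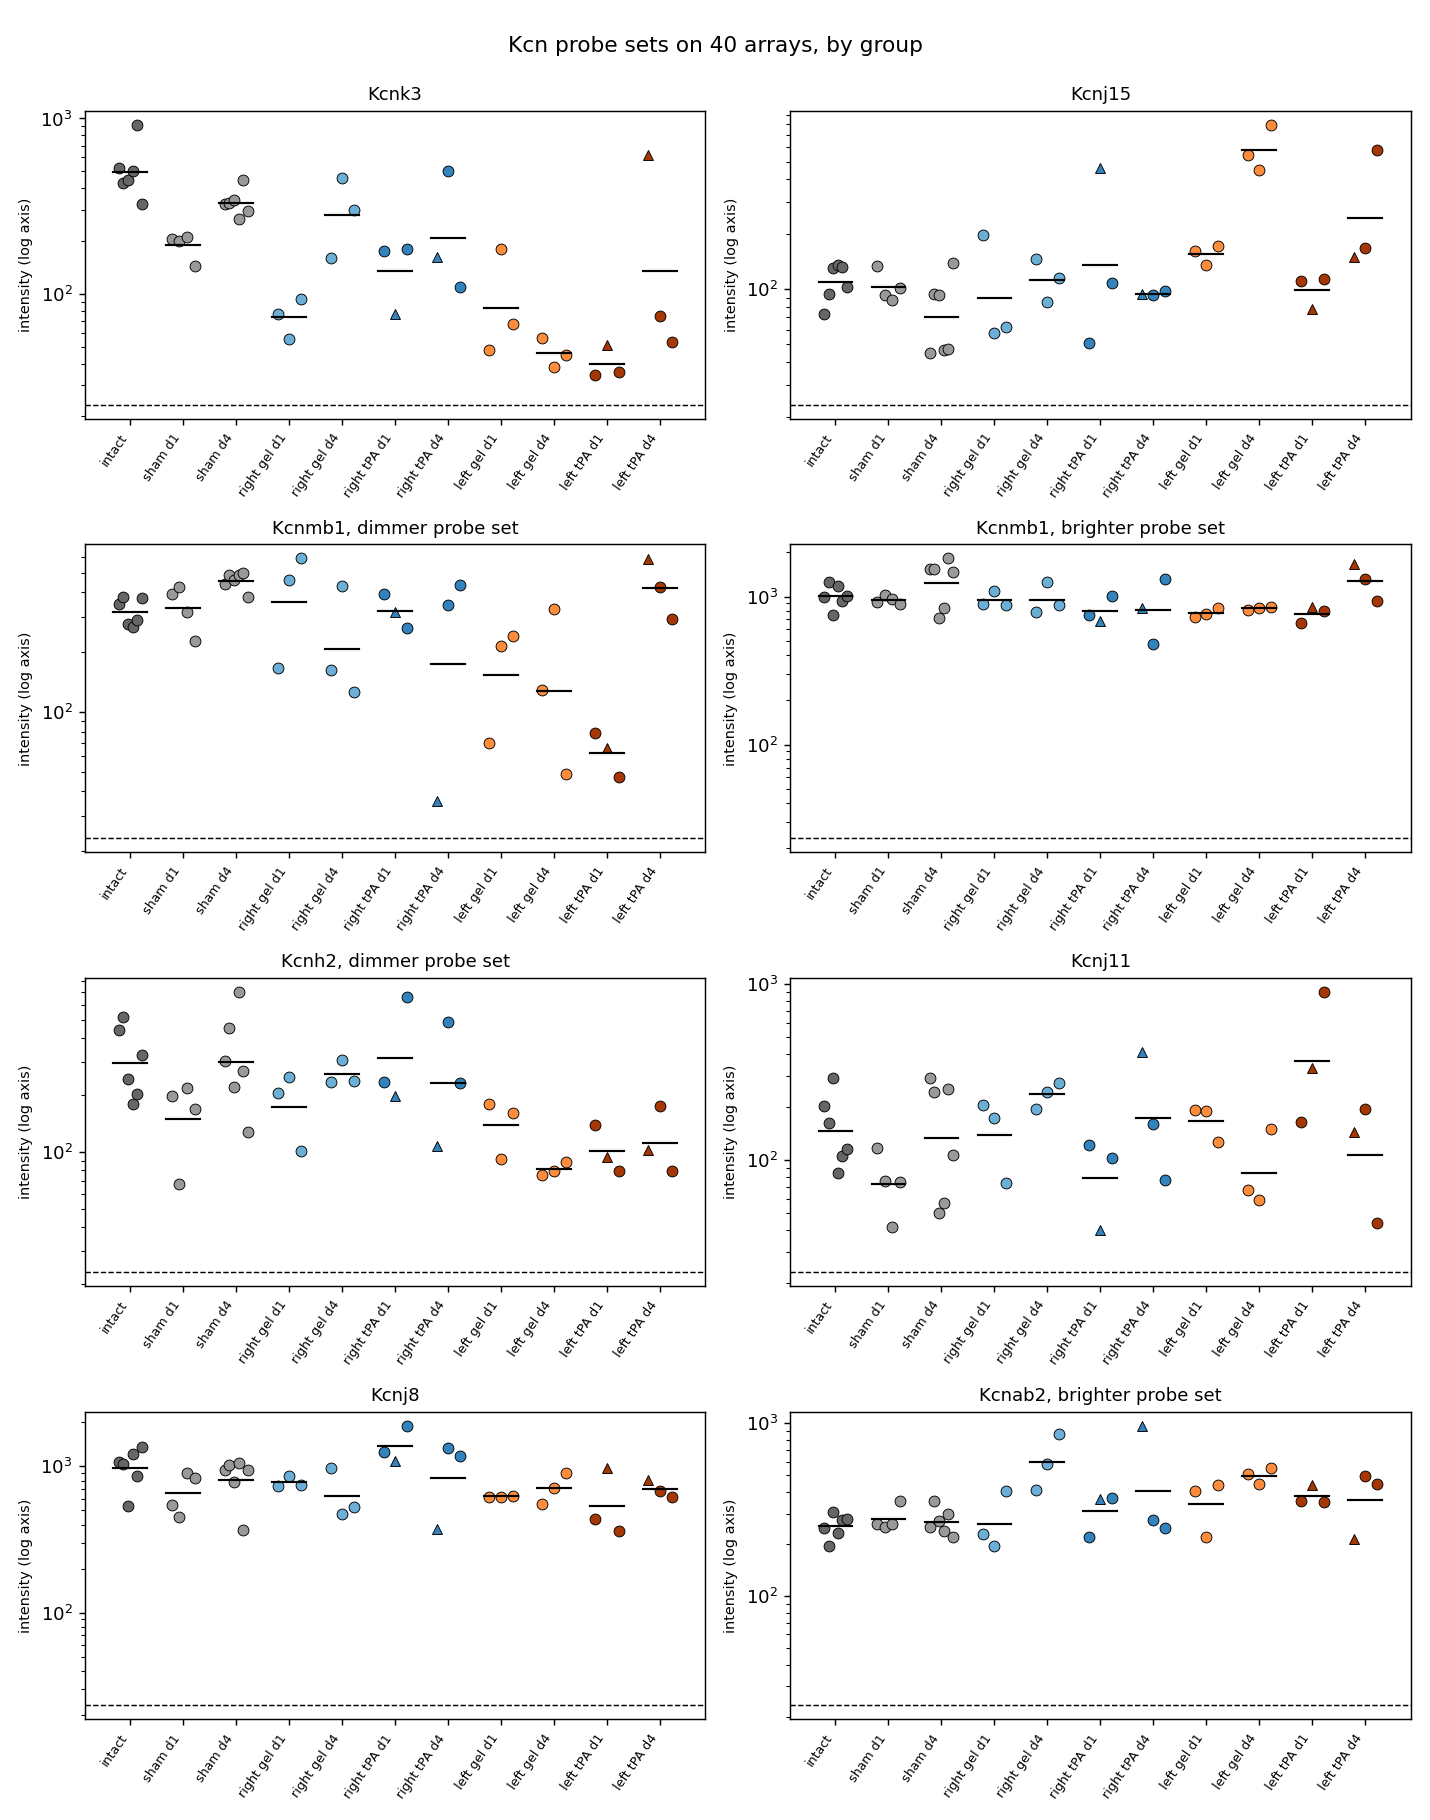
Intensity on a log axis of 8 Kcn probe sets on each of the 40 arrays, by group; points are arrays, the horizontal bar is the mean of the log2 values, the dashed line is the floor and triangles are the 4 tPA arrays that stood apart. Kcnk3 is lowest under gel at day 4 and under tPA at day 1, Kcnj15 is highest under gel at day 4, and the brighter Kcnmb1 probe set and Kcnj8 lie well above the floor on every array.

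Other genes of membrane potential were read beside the channels, from a list of 46 genes (24 tested): KATP partners, pumps, calcium, chloride and cation channels and gap junctions. In this list and the cell marker lists below, each gene was read on its tested probe set with the highest mean log2 level. At day 4, 1 of the 24 was higher and 6 were lower in injured gel arteries than in sham arteries. Of all tested probe sets 11.3% were called higher and 7.89% lower. Abcc9, the sulfonylurea receptor that partners Kcnj8 and lies next to it in the annotation, was lower by -1.58 (SE 0.44, adjusted p 0.00919), while its other probe set had the opposite sign. The calcium channel subunits Cacnb2 and Cacna2d1 were both at -1.59, and the calcium store genes Itpr1 and Atp2a3 were at -2.24 and -1.92. The plasma membrane calcium pump Atp2b1 was the one that rose (1.13). At day 1 none of the 24 was called by limma under gel, where 3.12% of all tested probe sets were.

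Other cell markers moved in the same arteries. At day 4, 7 of 14 tested contractile smooth muscle genes were lower under gel, and their mean level per array, centred over all arrays, was -0.71 to -0.61 against 0.24 to 0.76 in sham arteries. Macrophage markers were higher for 6 of 8 genes (0.92 to 1.57 against -1.55 to -0.71), lymphocyte markers for 5 of 9 (1.02 to 1.54 against -1.21 to -0.64) and cell cycle genes for 9 of 10 (1.21 to 1.48 against -1.17 to -0.25). Nerve markers were higher for 3 of 12, adipocyte markers for 2 of 6 and endothelial markers for 1 of 6; no skeletal muscle marker of 15 was called. No list had a gene at the floor on all these day 4 arrays. The ratio of 3' to 5' actin signal, which rises as RNA breaks down, was 7.38 to 8.09 under gel and 11.8 to 23.7 in sham arteries. The part of these cell types and of RNA quality in the Kcn differences was not tested. At day 1 skeletal muscle markers were higher under gel for 7 of 15 genes (2.12 to 2.90 against -1.05 to -0.58) and cell cycle genes for 5 of 10.

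The same injury was then set against the uninjured right artery of gel-treated rats, which shares the gel samples with the comparison above. At day 4, 2 of 34 Kcn probe sets were called, where 5.1% of all tested were. Kcnk3 read 160, 456 and 300 in right arteries, and injured arteries were lower by -2.61 (SE 0.59, adjusted p 0.00775). Kcnj15 read 146, 84.9 and 115 in right arteries, and injured arteries were higher by 2.36 (SE 0.54, adjusted p 0.00859). Neither pair of groups overlapped; the first call was lost without right gel day 4 replicate 2 (-2.26) and the second without left gel day 4 replicate 3 (2.13). In the same comparison 4 of 12 nerve markers were lower in injured arteries (-0.13 to 1.39 against 1.95 to 3.18 in right arteries). Also lower were 1 of 14 contractile smooth muscle genes and 1 of 6 adipocyte markers. Cell cycle genes were higher for 5 of 10 (1.21 to 1.48 against -0.26 to -0.20), lymphocyte markers for 2 of 9 and macrophage markers for 1 of 8. The part of these markers in the Kcn differences was not tested.

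At day 1, Kcnf1, a silent pore subunit that works only with partner subunits, was the 1 Kcn probe set called between sides, where 0.549% of all tested were. It read 19.3, 36.7 and 75.7 in injured and 143, 105 and 214 in right arteries, without overlap, and the difference was -1.88 (SE 0.41, adjusted p 0.0394). The value of 214 came from right gel day 1 replicate 3, the array with 6.57% of its probe sets at or under the floor. The call was lost without right gel day 1 replicate 1 (-1.90) or 3 (-1.61) or left gel day 1 replicate 1 (-1.49), and with left gel replicates 1 and 3 averaged into 1 (-1.91). Against sham arteries at day 1 (62.7 to 131) Kcnf1 was at -1.23 with an adjusted p of 0.0763, and at day 4 it read 69.4 to 110 under gel. The day 1 difference from sham was called without left gel day 1 replicate 3 (-1.69). It was also called with quantile normalization (-1.345), median scaling (-1.37) or array weights (-0.956). Between sides at day 1 skeletal muscle markers were above 0 for 15 of 15 genes (1 called, median 2.86). Cell cycle genes were above 0 for 10 of 10 (none called, median 1.23). Their part in the Kcnf1 difference was not tested.

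The right artery of the gel-treated rats was also set against sham. At day 1 none of the 34 was called by limma, where 0.927% of all tested were, and 4 had an unadjusted p under 0.05. Kcnk3 read 77.0, 54.9 and 93.6 in these uninjured arteries at day 1, all below the sham arrays, but the difference of -1.36 (SE 0.55) was not called (adjusted p 0.305). At day 4 the brighter Kcnab2 probe set was the 1 call, where 8.82% of all tested were called. It read 412, 583 and 870.5 against 221 to 356 in sham arteries, without overlap, and the difference was 1.14 (SE 0.33, adjusted p 0.0242); it was not called without replicate 2 (1.16) or 3 (0.87) of the right arteries. Nerve markers were higher in the same right arteries for 8 of 12 genes (1.95 to 3.18 against -1.06 to -0.23) and lower for 1. Adipocyte markers were higher for 4 of 6 and macrophage markers for 2 of 8. In the endothelial, skeletal muscle and cell cycle lists 1 gene each was higher. Contractile smooth muscle genes were lower for 3 of 14 (-0.41 to -0.22 against 0.24 to 0.76). The part of these markers in the Kcnab2 difference of the right arteries was not tested. The neuronal channel Kcna1 read 100.1 to 135 there on a probe set too dim on average to be tested, against 8.9 to 58.8 in sham arteries. The tested, brighter Kcna1 probe set read 103 to 147 there against 67.1 to 171 in sham arteries, with overlap, and its difference was 0.32 (SE 0.58, adjusted p 0.791 in limma).

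Sham arteries were set against intact arteries to see what the operation alone did. None of the 34 was called at day 1 (0.944% of all tested were called) or at day 4 (0.378%) by limma, with 6 and 3 at an unadjusted p under 0.05. Kcnk3 read 326 to 919, median 474, in intact arteries, above all 4 sham arrays of day 1. That difference was -1.40 (SE 0.47) and was not called (adjusted p 0.189). In the limma fit without the 4 tPA arrays, none of which is compared here, the same difference was called (adjusted p 0.0314). Only the shared spread had changed. At day 4 sham Kcnk3 overlapped intact arteries and was at -0.59 (SE 0.42, adjusted p 0.643).

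Injury under tPA was set against the same sham arteries. At day 1, 3 of 34 Kcn probe sets were called (8.82%), where 4.43% of all tested were: Kcnk3 and the dimmer Kcnmb1 probe set fell and Kcnj11 rose. On 7 of the 34 the groups did not overlap at day 1, where 20.6% of all tested did not. At day 4 only Kcnj15 was called, where 5.87% of all tested were. The medians of the 34 were 0.23 at day 1 and 0.01 at day 4, against 0.14 and 0.06 over all tested. Of the 24 tested membrane potential genes, 3 were lower at day 1 and none was higher: Abcc9 (-2.22), Itpr1 (-1.90) and Cacnb2 (-1.04). At day 4 only Atp2a2 was called (-0.97). Another probe set of Abcc9 and 1 of Atp2a2 had the opposite sign. Contractile smooth muscle genes were lower at day 1 for 3 of 14, with a median difference of -0.56. Their levels were -0.60 to -0.08 against 0.03 to 0.25 in sham arteries. Of the macrophage markers 1 of 8 was higher, and of the cell cycle genes 1 of 10 was lower. The part of these markers in the Kcn differences was not tested.

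**Figure D4:**
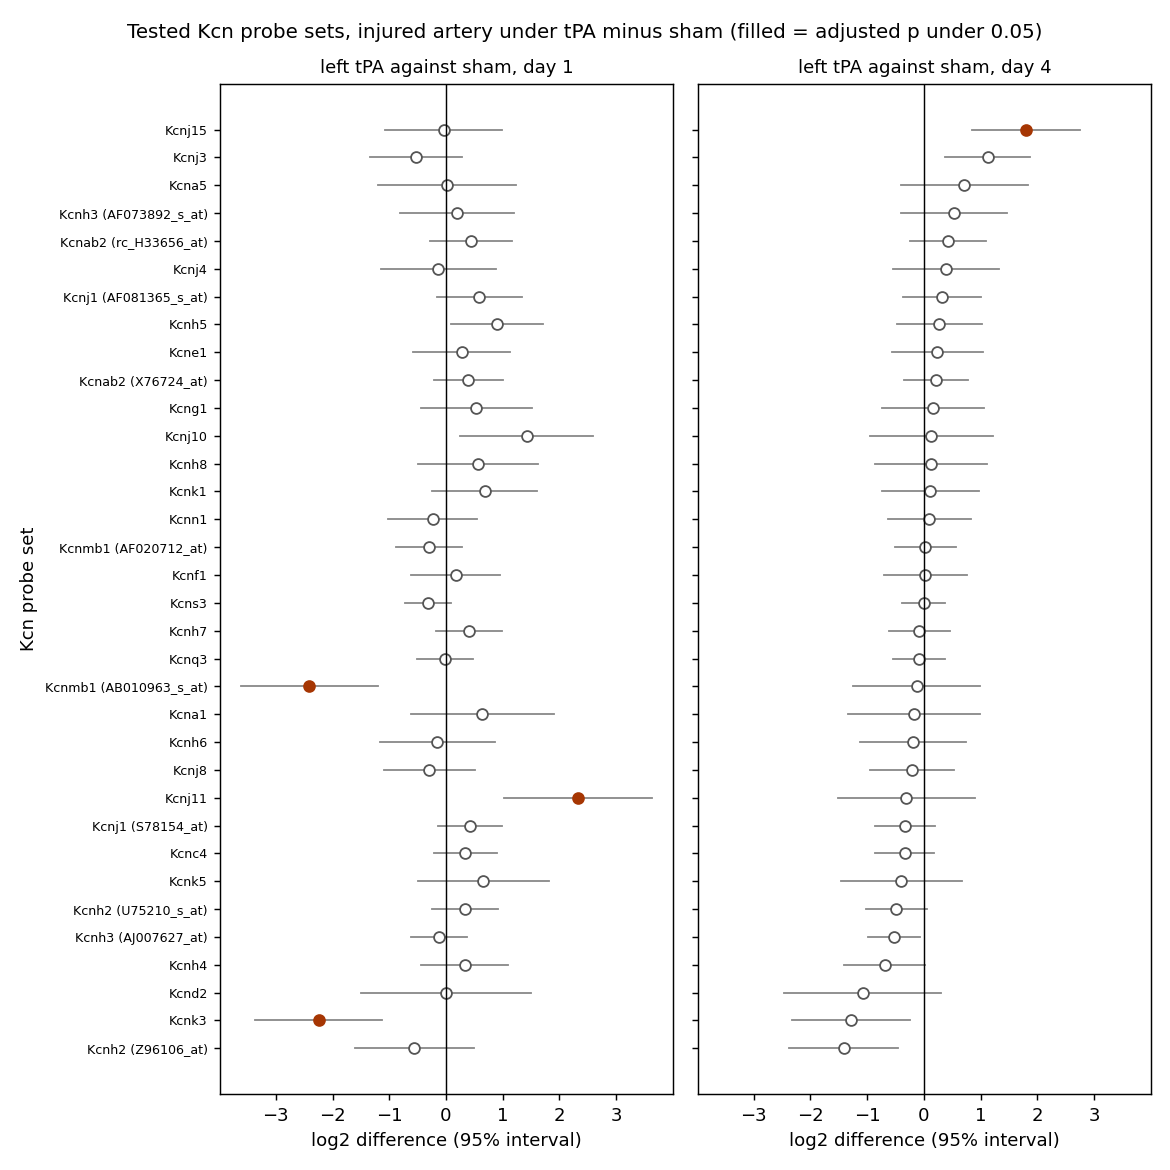
Log2 difference of the 34 tested Kcn probe sets between injured left arteries under tPA and sham arteries, with 95% intervals, at day 1 (left panel) and day 4 (right panel), ordered by day 4. Filled circles are calls: Kcnk3, Kcnmb1 and Kcnj11 at day 1 and Kcnj15 at day 4.

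Kcnk3 read 34.6, 51.1 and 35.6 under tPA at day 1, all below every sham array, and the difference was -2.25 (SE 0.55, adjusted p 0.0177). The array at 51.1 was one that stood apart, and without the 4 such arrays the difference was -2.42 (adjusted p 0.000596). The call was lost without sham day 1 replicate 2 (-2.21) or tPA replicate 1 (-2.14) or 3 (-2.17), and with the floor at the 40th percentile (-1.25). At day 4 Kcnk3 read 617, 74.4 and 53.1. The first value, above the whole sham range, belongs to the array with an injury index of -0.52, and both others lay below it. With it the difference from sham was -1.29 (SE 0.51, adjusted p 0.123); without it and the 3 other arrays apart it was -2.39 (adjusted p 0.000313).

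The dimmer Kcnmb1 probe set read 78.9, 66.0 and 47.2 under tPA at day 1 against 393, 427, 319 and 228 in sham arteries. The groups were far apart, and the difference was -2.41 (SE 0.59, adjusted p 0.0177), lost without sham day 1 replicate 2 (-2.29) or tPA replicate 3 (-2.20); without the 4 arrays apart it was -2.44 (adjusted p 0.00264). The brighter probe set read 668, 846 and 799 against 886 to 1021, below sham on all arrays, with a difference of -0.30 (SE 0.29, adjusted p 0.552). At day 4 the dimmer probe set read 587, 425 and 294, and from day 1 to day 4 under tPA it rose by 2.74 (SE 0.63, adjusted p 0.0269), the 1 Kcn call of that comparison, where 1.15% of all tested were called. This rise was not called without any 1 of the tPA day 4 arrays (2.50 to 3.00) or without tPA day 1 replicate 3 (2.54), and without the 4 arrays apart it was 2.53 (adjusted p 0.0161). The brighter probe set read 1670, 1311 and 938 at day 4, a difference from day 1 of 0.73 (SE 0.31) that was not called (adjusted p 0.264).

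Kcnj11, the KATP pore of heart, skeletal muscle and pancreatic beta cells, read 164, 334 and 897 under tPA at day 1 against 117, 76.6, 42.0 and 74.8 in sham arteries. The groups did not overlap, with 1 array far above the rest. The difference was 2.33 (SE 0.64, adjusted p 0.0319). Without the array at 897 it was 1.69, and it was not called then or without sham day 1 replicate 2 (2.36) or 3 (2.07); without the 4 arrays apart it was 2.40 and called (adjusted p 0.0216). A second probe set of Kcnj11, not tested, read 506 on that same array and 46.6 and 47.0 on the other arrays of the group. That array had ratios of 3' to 5' signal of 2.80 for actin and 0.24 for GAPDH; right tPA day 4 replicate 1, with ratios of 4.95 and 0.33, read 412 and 277 on the Kcnj11 probe sets. Under gel at day 1 the tested Kcnj11 probe set was also above sham, by 1.19, and was not called (adjusted p 0.402 in limma). With each array left out in turn that gel difference was 0.92 to 1.42. Skeletal muscle markers on the tPA day 1 arrays spanned -1.22 to 1.65, with 0 of 15 called. The part of RNA quality and of muscle in the Kcnj11 difference was not tested.

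Kcnj15 read 151, 167 and 578 under tPA at day 4, all above the highest sham array at 139. The difference was 1.80 (SE 0.47, a 3.48-fold rise, adjusted p 0.0231). It was lost without tPA replicate 2 (2.07) or 3 (1.18), and without the arrays that stood apart it was 2.15 (adjusted p 0.0013). At day 1 Kcnj15 read 111, 78.0 and 114, within the sham range of 87.2 to 134 or below it. Kcnj3 read 83.4, 81.9 and 68.6 at day 4, above every sham array, with a difference of 1.13 (SE 0.37) that was not called (adjusted p 0.06); without sham day 4 replicate 4 or 5 it was called (1.30 and 1.27). The dimmer Kcnh2 probe set was at -1.41 (SE 0.47, adjusted p 0.0668), with 102, 174 and 79.6 partly inside the sham range; it was called without sham day 4 replicate 6 (-1.66). Without the 4 arrays apart neither was called, Kcnj3 at 1.08 (adjusted p 0.0877) and Kcnh2 at -1.345 (adjusted p 0.0779). Macrophage markers were higher for 5 of 8 genes, lymphocyte markers for 3 of 9 and cell cycle genes for 7 of 10 at day 4 under tPA. Contractile smooth muscle genes were lower for 2 of 14, with a median difference of -0.67 and 13 below 0. Endothelial markers were lower for 1 of 6. The part of these markers in the Kcn differences was not tested.

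The effect of tPA itself was asked by setting injured arteries under tPA against injured arteries under gel; these share samples with both comparisons to sham. None of the 34 was called by limma at day 1 or at day 4, where 0.12% of all tested probe sets were called at each day; 3 had an unadjusted p under 0.05 at each. At day 1 the largest Kcn difference was Kcnj10, a glial inward rectifier, at 119, 172 and 168 under tPA against 11.2, 104 and 9.8 under gel. The groups did not overlap, 2 of the gel arrays were under the floor, and the difference was 1.97 (SE 0.62, adjusted p 0.153). Against sham arteries, at 39.4 to 80.5, Kcnj10 under tPA was at 1.42 (SE 0.58, adjusted p 0.14). Kcnf1 read 78.9, 120 and 129 under tPA, above the gel arrays, with a difference of 1.41 (SE 0.41, adjusted p 0.126). The dimmer Kcnmb1 probe set was at -1.30 (SE 0.63, adjusted p 0.375) and Kcnk3 at -1.06 (SE 0.59, adjusted p 0.438). Without the 4 arrays apart these day 1 differences between treatments were 1.88 for Kcnj10, 1.33 for Kcnf1, -1.34 for Kcnmb1 and -1.24 for Kcnk3, again none called (adjusted p 0.164 to 0.273), and Kcnj10 was at 1.33 against sham (adjusted p 0.215). Cell cycle genes were lower under tPA than under gel at day 1 for 3 of 10, with a median of -1.61. Skeletal muscle markers had a median of -2.94, with 12 of 15 below 0 and 3 above, and none was called. Nerve markers had a median of 1.13, with 12 of 12 above 0 and none called. Endothelial markers (median 0.89) and adipocyte markers (median 0.96) were above 0 for 6 of 6 genes each, with none called. Contractile smooth muscle genes had a median of -0.25 against 0.13 over all tested, with 13 of 14 below 0 and none called. The part of these markers in the Kcn differences was not tested.

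At day 4 the same Kcnmb1 probe set was at 1.71 under tPA against gel (SE 0.63, adjusted p 0.406), Kcnk3 at 1.56 (SE 0.59, adjusted p 0.412), Kcnj15 at -1.24 (SE 0.54, adjusted p 0.543) and the brighter Kcnab2 probe set at -0.47 (SE 0.38, adjusted p 0.85). All 4 pairs of groups overlapped. Without the 4 arrays that stood apart Kcnk3 was at 0.46, Kcnj15 at -0.90, Kcnmb1 at 1.46 and Kcnab2 at -0.09. Contractile smooth muscle genes had a median of 0.49 (11 of 14 above 0) and macrophage markers -0.91 (8 of 8 below 0). Lymphocyte markers had a median of -0.72 (8 of 9 below 0) and nerve markers -1.05 (10 of 12 below 0). None of these markers was called, and their part in the Kcn differences was not tested. The 95% intervals in the full fit, 0.42 to 3.00 for Kcnmb1 and 0.36 to 2.76 for Kcnk3, leave large differences possible. The change of the tPA difference between the days was 3.01 (SE 0.90, adjusted p 0.121) for Kcnmb1 and 2.62 (SE 0.83, adjusted p 0.155) for Kcnk3, with none of the 34 called by limma (0.0858% of all tested) and 5 at an unadjusted p under 0.05. Without the 4 arrays apart these were 2.80 (adjusted p 0.0635) and 1.70 (adjusted p 0.235). With each array left out in turn the Kcnk3 value ran from 1.52, without left tPA day 4 replicate 1, to 3.29, and the Kcnmb1 value from 2.31 to 3.69; with array weights the Kcnmb1 value was called (adjusted p 0.035). For the change of the injury difference between days none of the 34 was called either (2.42% of all tested), with 6 at an unadjusted p under 0.05. From day 1 to day 4 under gel, Kcnj15 was the 1 Kcn call, where 3.21% of all tested were called.

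Right arteries of tPA-treated rats entered no test of their own and are given as values. Kcnk3 read 176, 77.0 and 181 at day 1 and 163, 499 and 110 at day 4; Kcnj15 read 50.9, 463 and 108 at day 1 and 93.9, 92.4 and 97.4 at day 4. The Kcnj15 value of 463 is the highest outside injured day 4 arteries and belongs to the right array with an injury index of 1.42. Kcnj8 was high at day 1 there, at 1264, 1094 and 1902.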

How the data were processed

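RNA of 40 pooled carotid samples was hybridised to Affymetrix U34A arrays. The authors deposited an intensity on a linear scale for each probe set on each array; the sources used here do not name the summary or scaling method. Their mean without the lowest and highest 2% was 500 on every array, so an intensity is a share of its own array's signal. Of 8799 probe sets, 59 controls were left out. Values below 23.3 (the 20th percentile) were set to that floor before taking log2, so changes of dim genes are understated. The 2913 dimmest by mean log2 value were left out. The means of 11 groups were fitted on all arrays with limma 3.58.1 in R 4.3.3 (lmFit, eBayes; Benjamini-Hochberg, 0.05), giving 14 comparisons of groups and 2 differences of effects. The fit was tested on simulated data. The number of arrays limits the precision.

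Gene names come from the platform annotation. All 54 Kcn gene identifiers were found in the RefSeq gene table, and 40 have an entry in the separate promoter set (GRCr8). Named were Kcn probe sets called in any comparison, those with the smallest p in each direction against sham and between treatments, and genes known from arterial muscle. A few further differences were added after their values were seen. The members and lists were chosen with earlier results of these data known. Arrays with the same number deviated together (every pair r over 0.1) only between right gel and sham arteries at day 1 (r 0.12 to 0.28), where the labels give no shared animal and no Kcn probe set was called with or without the replicate block.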

Additional observations from a re-analysis of the deposited data

Results flagged for a closer look

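In groups of 4 to 6 arrays, 6 of 78 combinations of a named Kcn probe set and a group held 1 array far from the others by Dixon's criterion, which chance alone gives about 1 time in 20. In sham arteries at day 1, replicate 4 was low for Kcnk3, at 144.2 against 200.9 to 211.8, and high for the brighter Kcnab2 probe set, at 355.8 against 250.3 to 262.2. In sham arteries at day 4, replicate 5 was low for Kcnj8, at 368.7 against 779.6 to 1049, and high for a Kcnma1 probe set, at 99.3 against 23.2 to 39.7. Replicate 3 of that group was high for another Kcnma1 probe set, at 61.9 against 16.9 to 22.4. Replicate 2 was low for a Kcna2 probe set under the floor, at 5.5 against 21.8 to 48.5.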

How the results depend on the processing

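Over 48 named differences and 823 alternative values, 727 kept their direction and their side of the threshold, 57 lost a call, 34 gained one and 5 turned; the 16 calls kept theirs in 205 of 262 values and none turned. The cause was not tested. The 5 concerned Kcnj8 under gel at day 1, near 0 at -0.07 in the main fit, and Kcna5 under gel at day 4, at -0.58 in the main fit. Kcnj8 was 0.0557 with array weights, 0.0391 with the replicate block, and -0.25 to 0.0797 with each array left out in turn. Kcna5 was 0.15 with the replicate block.

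Counts of Kcn calls moved as follows. With array weights they were 7 for left gel against sham at day 1, 6 for left tPA against sham at day 4, 1 and 2 for left tPA against left gel at day 1 and day 4, 3 and 4 for left against right gel, 3 for right gel against sham at day 4, 3 for sham against intact at day 1, 11 for left gel between days, and 4 and 2 for the injury and tPA effects by day. With the replicate block, which the labels do not ground in shared animals, the count was 0 for left tPA against sham at day 1 and day 4, left against right gel at day 1, right gel against sham at day 4 and both day comparisons, and 1 for the change of the injury difference with day; no other count moved by over 1.5 times. Quantile normalization gave 1 for left gel against sham at day 1, 2 for left tPA and for right gel against sham at day 4, and 0 for left gel between days; median scaling gave 1 and 0 for the first and last of these. Without the filter on dim probe sets 2 were called between left and right gel at day 1, 1 between right gel and sham at day 1, and 1 for the change of the injury difference with day. Raising the filter to leave out more of the dim probe sets gave 0 for left tPA against sham at day 4, 0 and 1 for left against right gel and 0 for left gel between days. Fitting only the groups compared gave 0 for left tPA against sham at day 4, left against right gel at day 1 and left tPA between days, 1 for sham against intact at day 1 and 2 for the change of the injury difference with day.

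With the floor at the 40th percentile 0 were called between left and right gel at day 1 and 1 for the change of the injury difference with day, and the probe sets above the floor were 31 in intact arteries, 28 and 33 in sham, 27 and 32 in right gel, 33 and 28 in right tPA, 27 and 27 in left gel and 32 and 32 in left tPA arteries at day 1 and day 4; counting every array gave 41 for right gel at day 1. Alternatives added after seeing the data were the fit without the 4 tPA arrays, with 4 calls for left tPA and 2 for right gel against sham at day 4 and 1 each for sham against intact at day 1 and the change of the injury difference with day, and the averaged pair of left gel arrays, with 0 between left and right gel at day 1 and between days. Leaving out each array in turn gave 0 to 1 for left gel against sham at day 1, 4 to 8 at day 4, 0 to 3 for left tPA against sham at each day, 0 to 1 and 1 to 2 for left against right gel, 0 to 1 for right gel against sham at day 4, 0 to 1 for each day comparison and 0 to 1 for the change of the injury difference with day. Arrays do not show signal over background, so the dim pores, Kcnma1 among them, have only a bound.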
